A study of Drosophila melanogaster with 7 samples.

Results

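The transcriptome of control *Drosophila melanogaster* embryos at stage 5 was described gene by gene from the 4 control libraries of a series of 7, chosen by their genotype and stage labels. The series set 3 libraries of HP1-KD embryos, laid by females in which a Gal4-driven hairpin had silenced HP1 in the germ line, beside 4 libraries of control embryos, and the HP1-KD libraries were left aside here. The knockdown cross joined hairpin stock 33400 to driver stock 7063 of the Bloomington collection. The controls are labelled as wild type and as Bloomington stock 36303, and the labels do not say whether that stock was crossed to the driver. All flies were kept at 25 °C, embryos were staged by hand under oil and put singly into Trizol, and total RNA was made into stranded libraries. The labels do not say how many embryos went into a library or whether the replicates came from separate cages, so the spread between replicates reported here may be partly technical.

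Stage 5 is the cellular blastoderm, when membranes grow inwards between the nuclei of the syncytial embryo and close each off into a cell. Until then the embryo runs on RNA and protein that the mother loaded into the egg. At the maternal-to-zygotic transition much of that RNA is degraded while the zygotic genome is switched on, beginning with a small set of short genes and going on to the gap, pair-rule and segment polarity genes, which divide the embryo along its length, and to the targets of Dorsal and of BMP signalling, which divide it around its girth.

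The control libraries held 13878238, 10927292, 14374654 and 12294689.5 counts in replicates 1 to 4, and ribosomal RNA (rRNA) genes and pseudogenes took up a widely different part of them. The rRNA share was 47.2, 15.3, 18.1 and 17.2% in replicates 1 to 4, so replicate 1 stood far above the others. The 95% Wilson interval of the share in replicate 1 was 47.20 to 47.25%, which covers counting error only. Outside rRNA, 7324416, 9252760, 11775952 and 10177456 counts remained, with the fewest in replicate 1 and the most in replicate 3. Each pair of libraries differed by 17.6 to 127 times the variance that counting alone gives, so none was a copy of another. The libraries also differed in a graded way, with replicates 1 and 3 at its ends. Levels are therefore printed for all 4 libraries, in the order of replicates 1 to 4.

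Messenger RNA made up most of the counts outside rRNA. Ribosomal protein genes took up 7.93, 9.29, 8.83 and 8.35% of the counts outside rRNA, and all other protein-coding genes apart from the replicated histone genes took up 78.6, 75.7, 77.3 and 76.6%. The RNA of the signal recognition particle, 7SL, which helps to direct proteins into the endoplasmic reticulum, took up 5.82, 7.31, 7.62 and 7.06% with its 2 genes, against 1.45 ± 0.245% (SD, n = 4) for 30 small nuclear RNA genes other than 7SK. Long non-coding RNA genes were many and weakly represented. Of 1892 such genes, 103 had at least 10 counts in every library and 1044 had none in any, and together they held 0.499, 0.577, 0.842 and 0.598% of the counts outside rRNA, with the highest share in replicate 3. Small nucleolar RNAs held 0.587 ± 0.0696%. Transfer RNA genes held 0.00599 ± 0.00208% and precursors of microRNAs 0.0104 ± 0.00132%. All of these are shares of library counts, not of the RNA in the embryo. How well the libraries captured short RNAs was not tested.

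**Figure D1:**
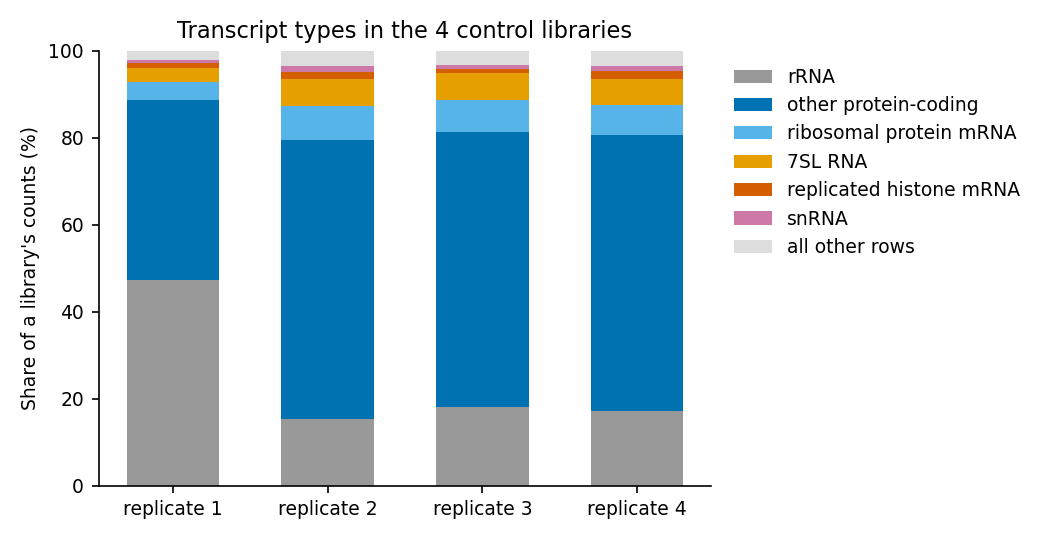
Share of each control library's counts, in percent, that fell on rRNA genes and pseudogenes, on 3 classes of messenger RNA, on 7SL RNA, on small nuclear RNAs and on all other rows of the table. Bars are single libraries, and the rRNA share reached 47.2% in replicate 1 against 15.3 to 18.1% in the other 3.

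To compare genes with each other, counts were divided by the length of each gene's exons and scaled so that the nuclear protein-coding genes of a library sum to 1000000 (TPM). TPM is thus a share of messenger RNA, not an amount per embryo, and in whole embryos fewer cells that express a gene and less of its RNA per cell cannot be told apart. On this scale *7SLRNA:CR32864* reached 421930, 505864, 568886 and 504400 TPM, above every protein-coding gene. It lies on chromosome arm 3R from 6822500 to 6822798 on the plus strand. The 10 non-coding genes with the highest mean count, rRNA left out, were both 7SL genes, *snRNA:U2:14B* (56108 ± 6250.1 TPM, SD, n = 4), *snRNA:U2:34ABc*, *snRNA:U1:21D*, *snRNA:7SKa*, *RNaseMRP:RNA*, 2 histone pseudogenes and *lncRNA:roX1*. *snRNA:7SKa*, which holds the elongation factor P-TEFb in an inactive state, had 14057, 16973, 18451 and 15488 TPM. *RNaseMRP:RNA*, the RNA of an enzyme that processes rRNA precursors, had 9676, 13384, 12178 and 11175 TPM. *lncRNA:roX1*, one of the RNAs of the male dosage compensation complex, had 366, 462, 768 and 444 TPM, highest in replicate 3, whereas its partner *lncRNA:roX2* had 3.84, 3.62, 5.94 and 6.0 TPM. Other listed long RNAs were *lncRNA:Hsromega*, an RNA of nuclear stress bodies, at 8.55, 11.8, 31.6 and 16.2 TPM, and *lncRNA:iab8* of the bithorax complex at 0.626, 1.74, 8.0 and 3.0 TPM, both lowest in replicate 1 and highest in replicate 3. Exons of *lncRNA:roX1* and *snRNA:U2:34ABc* overlap those of other genes, and the U1, U2 and 7SL genes have near-identical copies among which the counting may have split reads.

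Of 13821 protein-coding genes, 7117 (51.5%) had at least 1 TPM in all 4 libraries and are termed expressed here. Their median was 45.2 TPM. A mean of 10 TPM or more was reached by 5920 genes, 100 TPM or more by 1988, and 1000 TPM or more by 135. Of these last, 73 were ribosomal protein genes, 13 were replicated histone genes, 4 belonged to the zygotic lists and 3 to the maternal lists described further on. The messenger pool was spread over many genes, since 283 genes held 50% of it and 2930 held 90%. The 20 most abundant protein-coding genes together held 15.8, 15, 13.1 and 15.4%, lowest in replicate 3.

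Those 20 genes were 12 ribosomal protein genes, 4 replicated histone genes, 3 translation factors and *alphaTub84B*, an alpha-tubulin with 3913 ± 512 TPM (SD, n = 4). *RpL41*, at 18817, 20319, 20475 and 19592 TPM, was the highest gene outside the histone cluster. It was followed by *eEF1alpha1*, the elongation factor that brings aminoacyl-tRNA to the ribosome, at 11002, 9923, 11624 and 10451 TPM. Both were nearly level between libraries, with an SD of log2(TPM + 1) of 0.06 for *RpL41* and 0.10 for *eEF1alpha1*. The other ribosomal protein genes of this group were *RpL39* (6394 TPM), *RpS27A*, *RpLP2*, *RpS18*, *RpS20*, *RpS3A*, *RpL21*, *RpL27A*, *RpL23*, *RpS23* and *RpL29* (3973 TPM). The elongation factor *eEF2* had 4856, 4594, 5365 and 5122 TPM, and *eEF5*, which helps the ribosome past proline stretches, had 4879.7, 5382, 5655 and 5276 TPM. Exons of 8 of the 20 genes overlap exons of another gene, so their levels carry that uncertainty. Over the whole family, 84 of 91 cytosolic ribosomal protein genes were expressed, with a median of 2314 TPM, against 68.2 TPM for the 72 mitochondrial ones, all of which were expressed. The median of the cytosolic family was 2156, 2473, 2494 and 2211 TPM, and 71 of its 86 members with a mean of 1 TPM or more were lowest in replicate 1. Such counts are set beside the share over all 7591 protein-coding genes with a mean of 1 TPM or more. Of these, 34.4% were lowest and 29.3% highest in replicate 1, and 35.4% were lowest and 44.5% highest in replicate 3.

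The replicated histone genes, whose proteins pack DNA, lie in tandem copies on chromosome arm 2L. Reads were assigned unevenly to these near-identical copies, so only sums over a histone type are compared. *His2B:CG33908* alone held 92.7% of the H2B sum over 23 copies, and 8 of those copies had no count. Summed over copies, H2B had 32543, 24524, 13980.2 and 28239.8 TPM and H3 had 16430.1, 13386, 6844 and 15723 TPM. H2A had 21061, 15286, 9001 and 18099 TPM, and the linker histone H1 had 12936, 10856, 5885 and 12001 TPM. H4 had the lowest mean sum of the 5 types, with 8180.4, 8358, 4146 and 8559.5 TPM. The sums leave out 8 histone pseudogenes, which held 0.867% of the counts outside rRNA, against 1.91% for the replicated histone genes. *His-Psi:CR33867* alone had a mean of 17392 TPM, above the mean H3 sum of 13096 TPM. How far the assignment of reads to pseudogenes sets the order of the types was not tested. All 5 sums were lowest in replicate 3, and those of H1, H2A, H2B and H3 were highest in replicate 1. Mature histone transcripts carry no poly(A) tail, and total RNA libraries such as these retain them.

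The stage label was set beside lists of genes chosen for their known roles. Members and lists were chosen with earlier results of these data known, so they are not an independent check of the label. Some genes are shared between lists, such as *slp1* and *slp2* (head and pair-rule) or *nanos* and *gcl* (maternal axis and germ plasm). Others are *zen* and *scw* (first zygotic and dorsal ectoderm), *run* (first zygotic and pair-rule) and *sc* (first zygotic and neuroectoderm). Counts given for such lists thus overlap. The maternal lists held 63 measured genes, of which 61 were expressed, with a median of 127 TPM. The zygotic lists held 99 measured genes, of which 75 were expressed, with a median of 33.4 TPM. By contrast 11 of 112 genes of later tissues, and 0 of 18 genes of the eggshell and of the follicle cells that make it, were expressed. The median over all protein-coding genes was 2.95 TPM. Without replicate 3 the maternal median was 139 TPM and the zygotic 28.7 TPM. Without replicate 1 they were 112 and 35 TPM. Genes of the maternal lists and of the zygotic programme of the blastoderm were thus detected side by side, while genes of differentiated tissues were mostly at or near 0. Some listed genes, such as *hb*, *cad* and *stg*, are transcribed by mother and zygote alike, and their maternal and zygotic copies cannot be told apart in these counts.

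**Figure D2:**
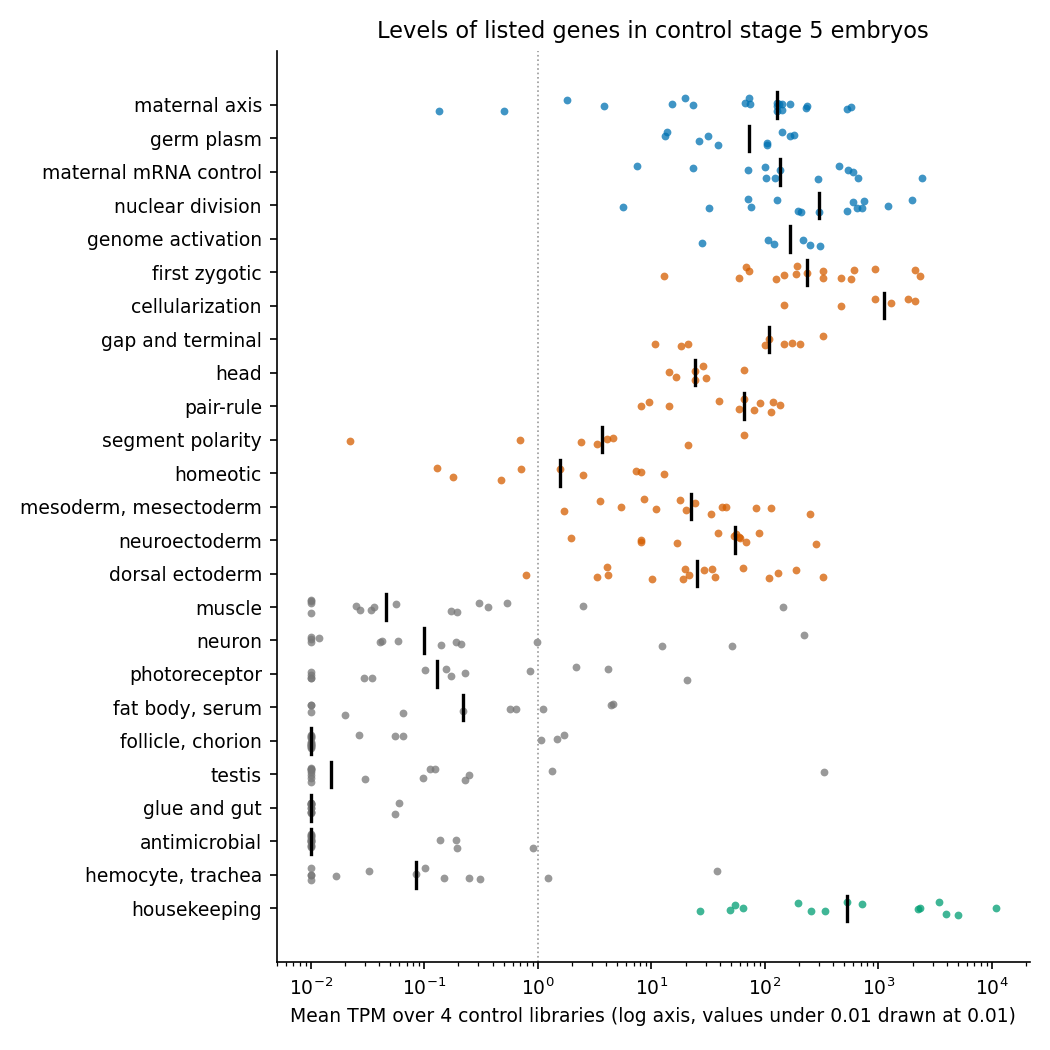
Mean level of every listed gene over the 4 control libraries, in TPM on a log axis with values under 0.01 drawn at 0.01. Points are genes, black bars are medians, and colours mark maternal (blue), zygotic (orange), later or eggshell (grey) and housekeeping (green) lists, and the medians of the grey lists lie under 1 TPM.

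Among the genes that set up the axes of the egg, the receptor *Tl* (588, 564, 537 and 601 TPM) and *cact* (484, 523, 564 and 559 TPM), which holds the Dorsal protein in the cytoplasm, were the most abundant and varied little between libraries. The anterior determinant *bcd* varied strongly. It had 227, 108, 41.7 and 138 TPM, highest in replicate 1 and lowest in replicate 3, and lies on chromosome arm 3R from 6755842 to 6759466 on the minus strand. *swa*, needed to localize *bcd* RNA, had 338, 258, 80.3 and 265 TPM. The posterior determinants were also lowest in replicate 3. *osk*, which assembles the germ plasm, had 305, 279.7, 70.0 and 261 TPM. *nanos*, a translational repressor, had 177, 185, 74.5 and 128 TPM. The receptor of the terminal system, *tor*, had 172, 131, 62.5 and 144 TPM, and the homeobox gene *cad* had 239, 130.4, 69.4 and 128 TPM. Of the 19 axis genes with a mean of 1 TPM or more, 14 were highest in replicate 1, against 29.3% of all genes, and 14 were lowest in replicate 3, against 35.4%. *ndl* and *tsl*, which are made by the follicle cells around the egg, had means of 0.502 and 0.134 TPM. *dl*, which encodes the dorsoventral transcription factor itself, had 5.26, 5.87, 1.54 and 2.79 TPM from 109.5, 160, 50 and 81 counts. Its message is known as one that the mother supplies, so this level is doubtful, and whether the counting lost reads of this gene was not tested.

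Germ plasm genes were present at moderate levels. *cup*, a partner of eIF4E that represses translation, had 277, 165, 102 and 174 TPM, and *gcl*, needed to form pole cells, had 221, 194, 72.3 and 172 TPM. *aub*, a Piwi-family protein, had 118, 97.1, 99.5 and 107 TPM and *pgc*, which silences transcription in pole cells, 130.4, 133, 67.1 and 90.8 TPM. All 10 members were expressed, the lowest being *vas* at 13.1 TPM, and 8 of them were lowest in replicate 3, against 35.4% of all genes. Exons of 7 of the 10 genes overlap those of a neighbour.

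Genes that control maternal messages reached higher levels. *me31B*, an RNA helicase that represses maternal messages, had 2961, 2530.1, 1678 and 2484 TPM and was the highest listed maternal gene. *smg*, whose product binds maternal messages and recruits the machinery that removes their poly(A) tails, had 1034, 609, 252 and 767 TPM, so replicate 1 held about 4.11 times the level of replicate 3. *tral*, a partner of Me31B, had 813, 539, 487 and 561 TPM. Of the 13 members, 9 were lowest in replicate 3, against 35.4% of all genes, and 8 were highest in replicate 1, against 29.3%. Among those that departed from this order was *pAbp*, the poly(A)-binding protein gene. It had 835, 188, 618 and 526 TPM, with its lowest value in replicate 2. The list ran down to *png*, a kinase gene of egg activation, at 7.52 TPM.

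Genes of the rapid nuclear divisions were the most abundant maternal list, with a median of 297 TPM. The cyclin gene *CycB* had 2855, 1965, 1022 and 2098 TPM and its relative *CycA* had 1368, 1247, 951 and 1293 TPM. The kinase gene whose product they activate, *Cdk1*, had 720.0, 748, 749 and 740.4 TPM, nearly level across libraries. Both Cdc25 phosphatase genes, which set the pace of mitosis, were highest in replicate 1 and lowest in replicate 3. *stg* had 293, 210.0, 100.1 and 224 TPM and *twe* had 288, 202, 73.5 and 217 TPM. Other members did not follow them. *Top2*, a topoisomerase, had 669, 632, 813 and 759 TPM, and *polo*, a mitotic kinase, had 582, 569, 613 and 609 TPM. *Mcm5* of the replication helicase was higher in replicate 3, at 60.1, 65.6, 109.8 and 63.5 TPM. In this list 7 of 15 members were lowest in replicate 3, against 35.4% of all genes, and 7 were highest there, against 44.5%.

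Factors tied to genome activation were all expressed. *zld*, the pioneer factor that opens early zygotic enhancers, had 146, 96.2, 190.1 and 44.5 TPM, with its lowest value in replicate 4 and the largest SD of log2(TPM + 1) of the 6, 0.90. *Clamp* and *Trl* both bind GA repeats. *Clamp* had 356, 329, 194 and 338 TPM, lowest in replicate 3, and *Trl* had 95.4, 101, 124 and 104 TPM. *Stat92E*, the transcription factor of the JAK/STAT pathway, had 296, 247, 198 and 251 TPM. *BigH1*, the linker histone of the early embryo, had 253, 313, 95.9 and 201 TPM. *grh*, a factor of epithelial enhancers, was the lowest of the 6 and highest in replicate 3, at 16, 19.3, 52.5 and 24.9 TPM. The gene of HP1a itself, *Su(var)205*, which was the target of the knockdown in the other samples of the series, had 755, 872, 1144 and 921 TPM in the control libraries, and its exons overlap those of a neighbouring gene.

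Several of the earliest zygotic genes were among the most abundant messages of the embryo. *Z600* ranked 66 and *halo* 81 by mean TPM among all protein-coding genes. *Z600*, which stops the nuclear divisions by inhibiting mitotic cyclins, had 1859, 2704, 2446 and 2312 TPM, and *halo*, which sets the direction of lipid droplet transport, had 1949, 2503, 1662 and 2252 TPM. *Sry-alpha*, needed for the actin network of the forming cells, had 792, 996, 1056 and 899 TPM. Others were lowest in replicate 3. *nullo*, which keeps the furrow canals stable, had 253, 145, 46.3 and 150.3 TPM. *bnk*, which delays closure of the cells at their base, had 725, 496, 203 and 439 TPM, and *scw*, a BMP ligand, had 275, 207, 71.4 and 205 TPM. *Elba3*, a subunit of an insulator-binding complex, had 703, 774, 338 and 645 TPM. The X-counting gene *sisA* and its target *Sxl*, the switch of sex determination, were instead highest in replicate 3. *sisA* had 128, 178, 278 and 177 TPM and *Sxl* had 102, 98.6, 210.5 and 89.1 TPM. In this list 9 of 17 genes were lowest in replicate 3, against 35.4% of all genes, and 7 were highest there, against 44.5%. The lowest member was *E(spl)m5-HLH*, a Notch target, at 0.7, 5.62, 33.7 and 11.6 TPM. Exons of 3 of the 17 genes, *Z600*, *Sry-alpha* and *Sxl*, overlap those of other genes, so their levels carry that uncertainty.

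The first zygotic genes were mostly short and without introns. Every annotated transcript had 1 exon for 11 of the 17, 64.7%. The corresponding share was 21.2% of all 99 zygotic list members, 4.76% of the 63 maternal ones and 9.61% of all expressed protein-coding genes. Their median span on the chromosome was 1077 bp, against 4423 bp for maternal list members and 2678 bp for expressed genes. *nullo* lies on chromosome arm X from 7049476 to 7050321 on the plus strand. *bnk* lies on chromosome arm 3R from 31193362 to 31194389 on the plus strand. Both have 1 exon. The lists were chosen by role, not by structure, but short genes without introns are a known property of the earliest zygotic set, so these shares are a description.

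Genes of cellularization had the highest median of all lists, 1109 TPM over 6 genes, some of them shared with the first zygotic list. *slam*, which directs growth of the furrow membrane, had 1812, 1911, 1809 and 1765 TPM and an SD of log2(TPM + 1) of 0.05. *dunk*, which acts on myosin at the furrow, had 1709, 1486, 535 and 1400.4 TPM, with replicate 3 far below the other 3. All 6 genes were expressed in every library, and the lowest value of any of them was that of *nullo* in replicate 3.

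The main gap genes, which respond directly to the maternal gradients, were close to level between libraries. *Kr* had 129, 144, 156 and 157 TPM and *kni* 102, 109.7, 114 and 108 TPM. *gt* had 224, 192, 209 and 188 TPM, and *tll*, which acts at the termini, 184, 166, 153 and 189 TPM. *hb*, which is transcribed both by the mother and by the zygote, was the highest at 431, 295, 215 and 367 TPM, with replicate 3 lowest. *knrl*, a relative of *kni*, did not behave like it and had 2.84, 7.12, 47.7 and 15.3 TPM, with replicate 1 lowest and replicate 3 highest. The POU-domain genes *nub* and *pdm2* also had their lowest value in replicate 1 and their highest in replicate 3, and *pdm2* had 0.501, 7.47, 27.6 and 7.39 TPM. Head genes were lower, with a median of 24.3 TPM, and 6 of 7 were highest in replicate 3, against 44.5% of all genes. Among them *slp1* had 52.9, 48.7, 91 and 66.6 TPM, *croc* had 23.6, 31.8, 43.1 and 22.8 TPM and *oc* had 16.8, 15.5, 46.6 and 18.2 TPM, all 3 being transcription factors of head segments.

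**Figure D3:**
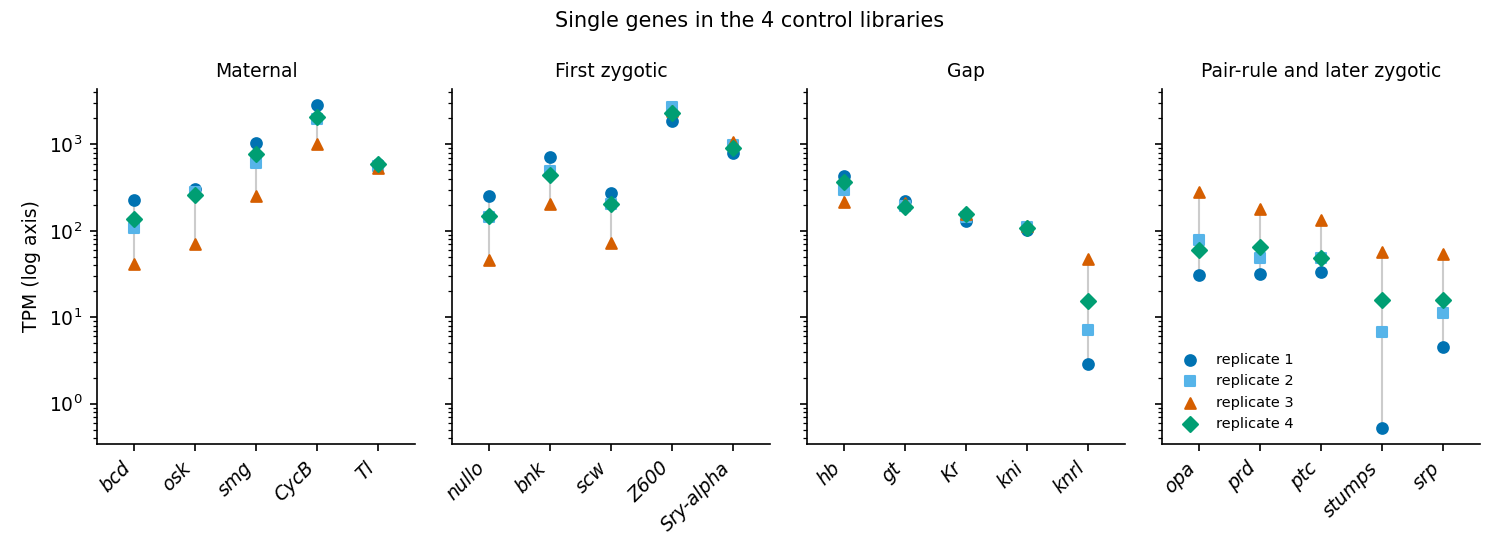
Level of 20 genes in each control library, in TPM on a shared log axis, with 1 marker per library and a grey line over the range. The maternal gene *bcd* and the first zygotic gene *nullo* were lowest in replicate 3 (41.7 and 46.3 TPM). Of the other first zygotic genes drawn, *Z600* was lowest in replicate 1 and *Sry-alpha* highest in replicate 3. *Kr* and *kni* were nearly level, and *opa* and *stumps* were highest in replicate 3 (281 and 56.8 TPM).

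The pair-rule genes, which draw the segment pattern, were all expressed, and all 11 were highest in replicate 3, against 44.5% of all genes. *hry*, the gene hairy, had 89.8, 127, 203 and 118 TPM and *odd* had 77.4, 114, 174 and 105 TPM. *opa*, a zinc-finger factor that changes how pair-rule genes act late in the blastoderm, had 31, 78.8, 281 and 60.6 TPM, with the largest spread among members with a mean over 10 TPM. *prd* had 31.7, 47.9, 179 and 64.2 TPM and *ftz* 67.9, 63.7, 155 and 77.5 TPM, whereas *eve* reached 27, 29.5, 59.3 and 41.3 TPM. The lowest were *sob* and *drm*, at means of 9.53 and 8.15 TPM. Replicate 1 was lowest for 8 of the 11, against 34.4% of all genes.

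Segment polarity and homeotic genes, which act after the pair-rule genes, were lower still. Of 8 segment polarity genes 3 were expressed in every library. The Hedgehog receptor gene *ptc* had 33.3, 48.8, 134 and 48.1 TPM and the ligand gene *wg* had 9.26, 12.3, 43.2 and 20.3 TPM, both highest in replicate 3. *en*, the selector of posterior compartments, had 1.22, 0.591, 5.01 and 2.86 TPM, and *hh*, the Hedgehog ligand gene, had 0.13, 0.697, 8.12 and 4.21 TPM. Of 9 homeotic genes 1 was expressed in every library, namely *tsh*, a trunk selector gene, at 1.7, 3.84, 33.2 and 12.9 TPM. *Dfd* of the Antennapedia complex had 0.846, 4.26, 21.6 and 6.0 TPM and *Antp* 0.797, 2.73, 18.6 and 6.89 TPM. *Ubx* of the bithorax complex had 0.0721, 1.27, 6.65 and 1.97 TPM and *abd-A* 0.0564, 0.926, 3.86 and 1.48 TPM. In replicate 1 *Ubx* and *abd-A* each rested on 1 count. The 5 homeotic and 6 segment polarity genes with a mean of 1 TPM or more were all highest in replicate 3, against 44.5% of all genes, but a gene can pass that limit through its level in replicate 3 alone.

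The dorsoventral lists held genes of very different levels. In the mesoderm, *Ilp4*, an insulin-like peptide gene, had 153, 225, 378 and 243 TPM, and the Dorsal target *twi* had 82.9, 99, 168 and 99.2 TPM, beside 95.2, 61.9, 104 and 70.9 TPM for *sna*, its partner in specifying mesoderm. The genes of the FGF pathway that spreads the mesoderm after gastrulation were lower and ranged widely. The receptor gene *htl* had 2.83, 7.81, 46.9 and 14.5 TPM, and its adaptor *stumps* had 0.524, 6.82, 56.8 and 16 TPM. Of the ligand genes, *ths* had 0.842, 3.96, 28.8 and 10.3 TPM and *pyr* had 1.3, 5.65, 21 and 6.32 TPM. All 4 were lowest in replicate 1 and highest in replicate 3. *fog*, the ligand of apical constriction, ran the other way at 55.2, 38.4, 26.8 and 48.5 TPM, and *tin* of the later dorsal mesoderm had 1.67, 0.425, 8.28 and 3.6 TPM.

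In the neuroectoderm *D*, a Sox factor, was highest at 302, 287, 209 and 319.6 TPM. The BMP antagonist *sog* had 59.8, 48, 171 and 72.8 TPM, and *SoxN* had 20.8, 35.6, 129 and 34.9 TPM. Of the proneural genes of the achaete-scute complex, *sc* and *ac* were lowest in replicate 3, whereas *l(1)sc* was highest there. *sc* had 103, 78.1, 21.8 and 71.5 TPM, *ac* had 53.1, 45.8, 17.3 and 39.1 TPM and *l(1)sc* had 40.4, 47, 83.8 and 41.8 TPM. *ind*, which marks the intermediate column, had 0.823, 1.89, 22.6 and 7.19 TPM.

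In the dorsal ectoderm the homeobox gene *zen* led at 399, 305, 183 and 404 TPM, followed by *scw*. The BMP ligand *dpp* had 28.8, 34.7, 42.7 and 31.9 TPM and *tld*, a protease that frees BMP ligands from Sog, 114, 134, 139 and 138 TPM. Both were lowest in replicate 1 and highest in replicate 3. The SD of log2(TPM + 1) was 0.235 for *dpp* and 0.137 for *tld*. *egr*, the TNF ligand, had 58.8, 99.1, 180.4 and 92.8 TPM. Genes that act later in this territory ranged more widely, among them the GATA factor genes *srp* (4.53, 11.1, 54.6 and 15.9 TPM) and *pnr* (0.39, 1.08, 9.69 and 5.22 TPM), *ush*, a cofactor of GATA factors (0.345, 1.23, 11.5 and 3.43 TPM), and the T-box gene *Doc2* (4.61, 10.5, 43.3 and 17.3 TPM). Of the 15 dorsal ectoderm genes with a mean of 1 TPM or more, 13 were highest in replicate 3, against 44.5% of all genes, and 12 were lowest in replicate 1, against 34.4%.

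Most genes of later tissues were at or near 0. Of 112 such genes 76 had fewer than 3 counts in every library, 44 of them with none at all. The 12 glue and gut genes and the 16 antimicrobial peptide and related genes all had means under 1 TPM, the highest being 0.0594 and 0.904 TPM. The exceptions, with a mean of 1 TPM or more, numbered 15. The highest were *alphaTub84D*, an alpha-tubulin listed with testis genes, at 296, 297, 420.4 and 309 TPM, *Csp*, a synaptic vesicle chaperone, at 246, 197, 214 and 232 TPM, and *Tm1*, a tropomyosin with muscle and non-muscle forms, at 137, 136, 145 and 157 TPM. *Syx1A*, a syntaxin of membrane fusion, had 53.2, 30.6, 68.3 and 51.8 TPM, *crq*, a scavenger receptor of macrophages, 48.4, 54.5, 17.2 and 31.3 TPM and *norpA*, the phospholipase C of photoreceptors, 26, 21.5, 11.4 and 22.9 TPM. *elav*, the RNA-binding protein used as a marker of neurons, had 3.24, 6.39, 31.8 and 8.3 TPM, with replicate 3 far above the others. The remaining ones were *Act87E*, *Rh4*, *ninaA*, *Lsp1gamma*, *apolpp*, *Adh*, *bol* and *Cht2*, each with a mean under 5 TPM. Exons of 25 of the 112 genes overlap those of other genes. Among the exceptions this holds for *Act87E*, *Tm1*, *elav*, *Syx1A*, *ninaA*, *apolpp*, *Adh*, *crq* and *Cht2*, so their levels carry that uncertainty. Of the 18 eggshell and follicle cell genes, 12 had no count, and the highest, the chorion gene *Cp15*, had 3, 2, 4 and 6 counts. No list of a later tissue reached a median of 1 TPM in any library.

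At the silent end, 2807 protein-coding genes (20.3%) had no count in any of the 4 libraries. A looser limit of fewer than 3 counts in every library was met by 4791 (34.7%). For a gene with 1 kb of exons, 3 counts correspond to 0.927, 0.708, 0.595 and 0.666 TPM, which is the level that a count of 0 still allows. Families known from adult sense organs, cuticle and male glands contributed to the silent genes. No count was found for 33 of 59 odorant receptor genes, 32 of 60 gustatory receptor genes and 32 of 60 ionotropic receptor genes. Of 117 cuticular protein genes 76 had none, and so had 32 of 47 genes of male accessory gland and seminal fluid proteins. None of the accessory gland, Osiris or Jonah protease genes was expressed in every library. Cytochrome P450 genes were a mixed family, with 22 of 84 expressed and 21 without a count. Silent genes were short, with a median exon length of 1022 bp against 2102 bp for expressed genes, and 28.2% had no intron, against 9.61%. A short gene also yields fewer reads at the same level, and the part of length in this difference was not tested.

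By chromosome arm, the share of protein-coding genes expressed was 48.9% on 2L, 51.5% on 2R, 50.4% on 3L, 51.3% on 3R and 56.2% on X. The small chromosome 4, which is rich in heterochromatin, had the highest share, with 58 of 79 genes (73.4%) expressed and none silent. The median level of its expressed genes was 80.8, 88, 108 and 95.5 TPM, against 47.9, 45.3, 44.3 and 45.2 TPM on chromosomes 2 and 3 together, a ratio of 1.68, 1.94, 2.43 and 2.11. Expressed X-linked genes had a median of 43.8, 38.3, 33.7 and 35.8 TPM, which was 0.913, 0.845, 0.762 and 0.793 times that of chromosomes 2 and 3. The ratio for chromosome 4 was highest and that for X lowest in replicate 3, and replicate 1 lay at the other end of both. Of 23 Y-linked genes 15 had no count. The highest single count was that of *kl-3*, a dynein heavy chain gene of sperm, which had 4, 1.5, 11.5 and 7 counts. *FDY* had 2, 5, 9.5 and 9.5 counts, above *kl-3* in replicates 2 and 4.

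The spread between replicates was taken as the SD of log2(TPM + 1) over the 4 libraries. Among 5920 protein-coding genes with a mean of 10 TPM or more its median was 0.251, and the median coefficient of variation was 17.5%. It was under 0.1 for 756 genes, over 0.5 for 1277 and over 1 for 139. The median spread was 0.497 for genes between 1 and 10 TPM, 0.309 between 10 and 100 TPM, 0.169 between 100 and 1000 TPM and 0.121 above. Over all 4 libraries, edgeR estimated a biological coefficient of variation of 0.312 from 7379 genes, not only protein-coding ones, that passed its count filter. With 1 library left out the filter kept between 7375 and 7742 genes. This coefficient was 0.197 without replicate 3, and between 0.304 and 0.368 when any of the other libraries was left out. The median SD was likewise 0.154 without replicate 3.

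**Figure D4:**
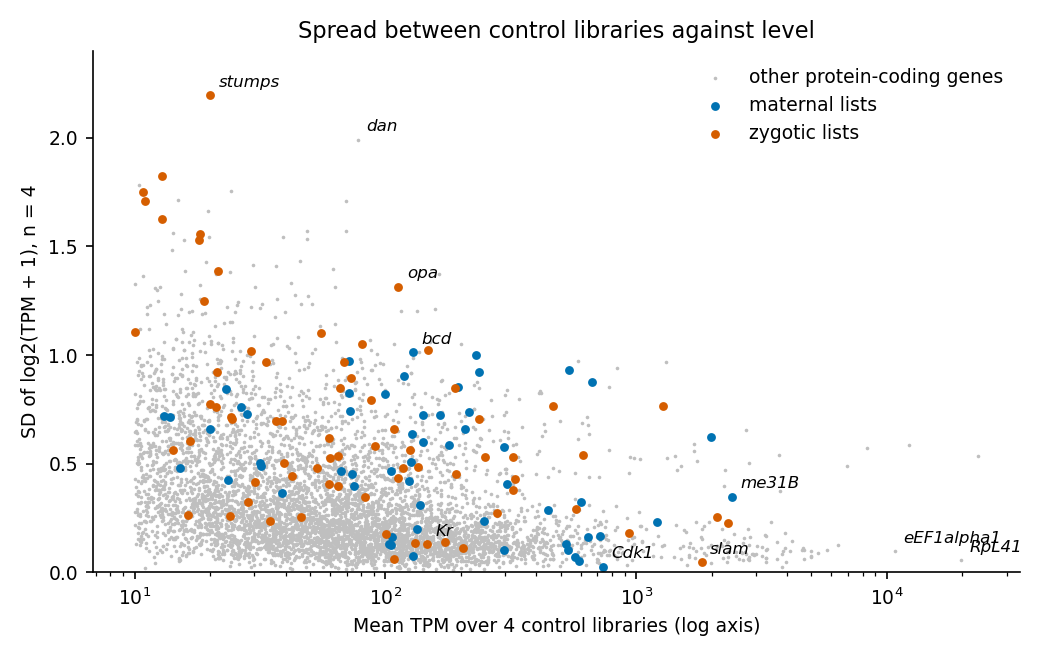
SD of log2(TPM + 1) over the 4 control libraries against mean TPM on a log axis, for the 5920 protein-coding genes with a mean of 10 TPM or more (grey), with members of the maternal (blue) and zygotic (orange) lists on top. *stumps* and *dan* are the highest points, at 2.20 and 1.99, while *slam* and *Cdk1* lie at 0.05 and 0.03.

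Replicates 1 and 3 lay at the ends of the difference between libraries, and replicates 2 and 4 between them. A principal component analysis of the 5920 protein-coding genes put 82.3% of the variance on the first component. On it, replicates 1 to 4 scored -29, -8.46, 41.2 and -3.71. Across genes, log2 levels correlated at r = 0.855 between replicates 1 and 3 and at r = 0.983 between replicates 2 and 4. Genes are not independent replicates, so these r are descriptions. Replicate 3 was at least 2-fold above replicate 1 for 697 genes, and for 651 of them replicates 2 and 4 both lay between. It was at least 2-fold below for 749 genes, with replicates 2 and 4 between in 611. At a 4-fold limit the numbers were 257 above and 59 below. Genes picked for a wide gap between replicates 1 and 3 are more apt to hold the other libraries within it. Over all 5920 genes, replicates 2 and 4 both lay between replicates 1 and 3 for 2986 (50.4%).

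This difference varied from list to list. Among genes with a mean of 1 TPM or more, replicate 3 was at least 2-fold above replicate 1 for 56 of 92 zygotic genes and 3 of 61 maternal genes, beside 19.1% of all 7591 protein-coding genes. It was at least 2-fold below for 12 zygotic and 28 maternal genes, beside 12.9% of all. The maternal axis list deviated from its 4-library mean by a median of 0.49, 0.17, -0.66 and 0.10 on the log2 scale, positive in replicate 1 and negative in replicate 3. The pair-rule list deviated by -0.51, -0.36, 0.86 and -0.01, the dorsal ectoderm list by -0.79, -0.32, 1.06 and 0.09 and the homeotic list by -1.66, -0.27, 1.79 and 0.16, all negative in replicate 1 and positive in replicate 3. The cellularization list, at 0.27, 0.21, -0.68 and 0.09, the germ plasm list, at 0.49, 0.33, -0.78 and -0.09, and the list of genes that control maternal messages, at 0.32, 0.22, -0.49 and 0.07, were likewise highest in replicate 1 and lowest in replicate 3. The other maternal lists were not low in replicate 3 in this way, with 0.11, 0.02, 0.02 and 0.04 for the nuclear division list and 0.27, -0.03, -0.04 and 0.00 for the genome activation list. The gap and terminal list, at -0.08, -0.05, 0.09 and 0.10, and the housekeeping list, at 0.04, 0.07, 0.09 and -0.03, stayed close to 0 in every library.

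The order did not rest on replicate 3 alone. With that library left out, replicate 1 was the lowest of the other 3 for 53 of 92 zygotic genes and the highest for 38 of 61 maternal genes. Over all 7591 genes it was the lowest for 2994 and the highest for 2717. Replicate 1 was also the library with the largest rRNA share and the fewest counts outside rRNA, and replicate 3 the one with the most. The part of either in the order of the libraries was not tested.

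**Figure D5:**
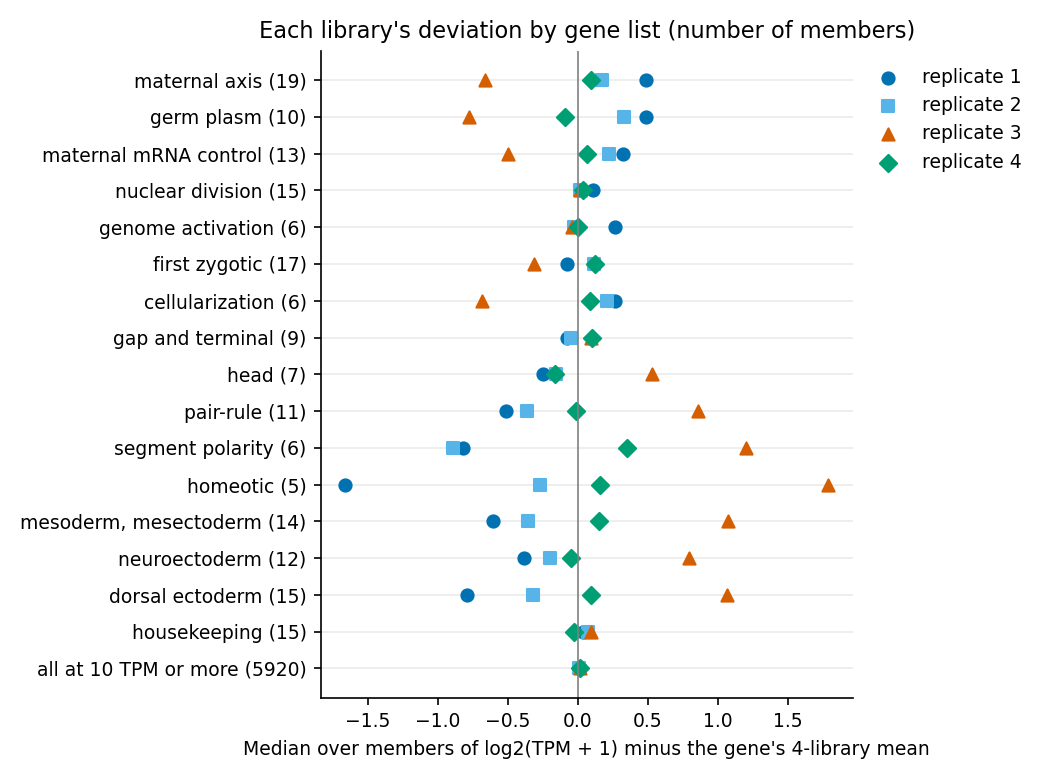
Median over the members of each list of log2(TPM + 1) minus the gene's mean over the 4 control libraries, with 1 marker per library and the number of members with a mean of 1 TPM or more in brackets (10 TPM or more for all protein-coding genes). Replicate 3 lies left of 0 for the maternal axis (-0.66) and right of it for the homeotic list (1.79), with replicate 1 on the opposite side.

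The 10 genes with the largest spread at a mean of 10 TPM or more were all lowest in replicate 1 and highest in replicate 3. Of all 5920 genes at that limit, 1907 were lowest in replicate 1 and 2407 were highest in replicate 3. A gene can pass the limit through its level in replicate 3 alone, which favours this direction among the 10. After *stumps* came *dan*, which encodes a nuclear protein known from antennal development, at 6.54, 37.8, 218 and 48.7 TPM, and the related *danr* was also among the 10, at 8.68, 41.7, 168 and 60.3 TPM. *dan* lies on chromosome arm 3R from 25184383 to 25192806 on the plus strand. *danr* lies on the same arm from 25138072 to 25139903 on the plus strand. The others were *E(spl)m5-HLH*, the serotonin receptor gene *5-HT2A* (0.999, 2.01, 28.7 and 10.1 TPM), *CG32982* (2.33, 12.3, 59.6 and 22.8 TPM), *pdm2*, the Wnt receptor gene *drl* (1.39, 6.19, 40.0 and 12.3 TPM), *ths* and the zinc-finger repressor gene *Blimp-1* (2.23, 10.8, 53.1 and 12.5 TPM).

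At the other end of the same order, the 10 genes with the lowest replicate 3 relative to replicate 1 included *bcd* and *nullo*. This group was chosen after its values were seen. The forkhead gene *fd19B* had 42.2, 24.5, 5.26 and 30.3 TPM, the proneural gene *amos* had 215, 142, 41.8 and 145 TPM, and *Vha55*, a subunit of the vacuolar proton pump, had 226, 102, 44.6 and 117 TPM. *Mnt*, a partner of Max, had 42.9, 5.28, 7.42 and 17.6 TPM, with its lowest value in replicate 2 and not in replicate 3. *MCU*, the mitochondrial calcium channel gene, had 63.3, 43.8, 11.8 and 46.8 TPM, and its exons overlap those of another gene. The remaining members were *CG13716*, *CG32365* and *CG5966*.

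The steadiest genes differed by a few percent between libraries. *CG5174* had 186, 185, 183 and 187 TPM, the retromer subunit gene *Vps29* had 122, 123, 125 and 123 TPM and *Ifrd1* had 139.7, 139.7, 143 and 140.3 TPM. They were followed by *Ptpmeg*, *or*, *CG1622*, *mRpL42*, *CG10376*, *clt* and *dnk*, each with an SD of log2(TPM + 1) of 0.02. None of the 15 listed housekeeping genes was among them. *Act5C* had 2387, 2171, 2483 and 2203 TPM and *RpL32* 1941, 2442, 2373 and 2184 TPM, while *Gapdh1* had 245, 269.8, 87.5 and 187 TPM, lowest in replicate 3.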

How the data were processed

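Per the labels, RNA was extracted from hand-staged embryos and sequenced with a stranded total RNA kit. The table the authors deposited holds estimated counts for each FlyBase gene, in multiples of 0.5 and not normalized. The submitters' processing notes name STAR and dm6, and the counting program and its handling of strand are not given in the sources used here. Control columns were matched to samples by their headers, and every column of the table was mapped.

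Exons, biotypes and positions came from Ensembl release 115 on dm6 coordinates, which held 17561 of 17699 identifiers. The other 138 took 0.668 to 0.936% of counts and got no value per length. Overlap means shared exonic bases on either strand. Expected counts were divided by the union of exons and scaled to TPM over protein-coding genes, and rounded for edgeR 4.0.16 and DESeq2 1.42.0 (R 4.3.3), which gave the other scalings and the coefficient of variation. Log values used a pseudocount of 1. The TPM scaling was tested on simulated counts without noise, and the edgeR coefficient of variation on simulated counts with a set value. Dixon's test was used to look for libraries that stand apart, and no groups were compared.

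Named were the 20 protein-coding and 10 non-coding genes with the highest means, list members, later-tissue genes at 1 TPM or more, and the 10 genes with the largest and smallest spread. The 10 genes lowest in replicate 3 relative to replicate 1, *kl-3*, *FDY* and the knockdown target fell outside this rule. Of 321 listed symbols, 319 were matched. Members and lists were chosen with earlier results of these data known. Alternatives were other scalings, lengths, limits and each library left out.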

Additional observations from a re-analysis of the deposited data

Results flagged for a closer look

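Of 83 sets of 4 library values examined, 1 held a library whose gap to the nearest other exceeded the 95% limit of Dixon's test, which chance passes in about 1 of 20 groups. It was the rRNA share of counts, at 47.2% in replicate 1 against 15.3 to 18.1% in the other 3 libraries. The gap was 0.914 of the range.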

How the results depend on the processing

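Over 52 recomputed values, 48 stayed within 1.5 times a count or within 1 SD between libraries, and 4 moved further. A mean over libraries, such as the rRNA share, cannot shift by 1 SD when 1 library is left out. Those values were thus bound to stay. The mean rRNA share was 24.5% over all 4 libraries and 16.9% without replicate 1. A limit of fewer than 3 counts in place of 0 raised the number of silent genes to 4791. The share of the 20 most abundant protein-coding genes was 20.8% among genes without overlapping exons and 12.2% without replicated histone genes, an alternative chosen after seeing the data, each relative to the genes that remained. With each replicate left out in turn, the median spread ranged from 0.154 without replicate 3 to 0.279. The zygotic median ranged from 28.7 to 35 TPM, and the maternal from 112 to 139 TPM. Under TPM, TMM, DESeq2 size factors or TPM without histone genes, 52 to 56 zygotic genes were at least 2-fold higher in replicate 3 than in replicate 1 and 28 to 29 maternal genes at least 2-fold lower. Under DESeq2 size factors the median of all genes shifted by -0.11 on the log2 scale between replicates 3 and 1. The planned search of promoters for a motif was not run, since no sequences were used. No paired analysis was possible because only 1 group was described. Levels of single genes are limited by overlapping exons, by near-identical copies and by the handling of strand, which is not given.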
